A study of Mus musculus with 12 samples.

Results

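The axon guidance ligands and receptors were followed in the hypothalamus of adult mice. They were chosen by symbol, as every semaphorin, plexin, neuropilin, ephrin, Eph receptor, Slit, Robo, netrin and Unc5 gene and Dcc in the expression table. The rule found 69 of the 32494 listed genes, 35 coding for ligands and 34 for receptors. A mean of at least 1 CPM (counts per M reads, normalized by the authors) over the 12 libraries was reached by 66 of the 69 and by 15359 genes in all, and these were tested. All 12 mice were male, carried floxed Smc3, were given tamoxifen and were sampled 5 weeks later. The labels list the mice as 8 weeks old but do not tie that age to a step. The mice grouped as WT lacked the Camk2a-cre/ERT2 transgene (Cre-, n = 7), and those grouped as cKO carried it (Cre+, n = 5). Camk2a-cre/ERT2 makes a tamoxifen-activated recombinase under a promoter active mainly in forebrain excitatory neurons, so the other cells of the piece are not its target. The titles of WT and cKO mice alike include "control". Each library came from 1 mouse, and mice are named by the number in their title. The study asked what the loss of Smc3, a subunit of the cohesin ring that holds DNA loops, does to the adult brain.

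Guidance ligands tell a growing axon where to turn, and many stay expressed in the adult brain, where they act on synapses, glia and vessels. Semaphorins signal through plexins, and most secreted class 3 semaphorins also need a neuropilin as the binding subunit. Ephrins are held in the membrane and are bound by the Eph receptor tyrosine kinases of a neighbouring cell, with signals passing both ways. Slits repel axons through Robo receptors. Netrins attract through Dcc and repel through Unc5 receptors.

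Among the tested members, 7 were lower in the libraries labelled cKO and 0 were higher, at an adjusted p under 0.05 in limma's test with trend over all tested genes. The 7 were Sema3f, Sema4g, Sema5a, Sema6a, Plxnd1, Slit3 and Epha8. They were 10.6% of the 66, while 14.1% of all tested genes were called, 7.60% as lower and 6.54% as higher. In this fit the members' share of calls was not above that of genes at large, and the shares with marker scores as covariates are given with the other models. All calls among them were in 1 direction, however, and 51 of the 66 (77.3%) had a fold change below 0, against 47.5% of all tested genes. The median log2 fold change was -0.10 over the members and 0.01 over all tested genes. An unadjusted p under 0.05 was reached by 18 members (27.3%), each of them lower in cKO, and by 31.1% of all tested genes. After each library was corrected for GC content and transcript length, 41 members (62.1%) had a fold change below 0, against 42.0% of all genes, with medians of -0.06 and 0.03, and 7 were called lower and 2 higher, where 5.94% and 9.08% of all genes were. Over all genes the split of calls moved with the scaling, from 1004 higher and 1168 lower to 1377 and 1054 after median centring and to 1318 and 862 after the GC correction.

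**Figure D1:**
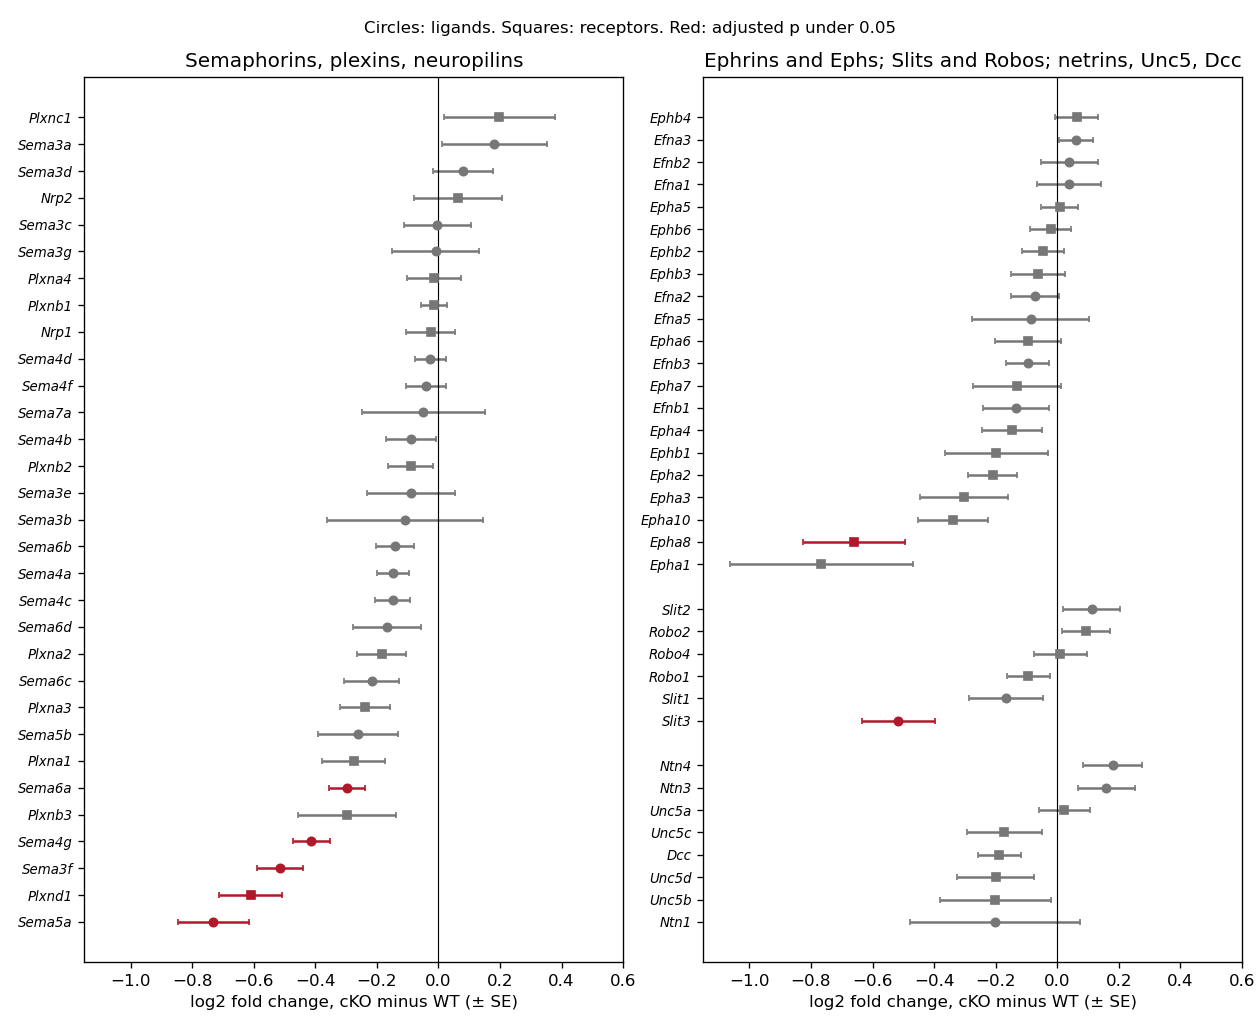
The plot of fold changes by family shows the log2 fold change of every tested member (x axis, cKO minus WT on the log2(CPM + 1) scale, with its SE). Circles are ligands, squares are receptors and red marks an adjusted p under 0.05. All 7 red points lie left of 0, and 51 of the 66 points do.

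The libraries held 17.1 to 24.0 M recovered reads, except WT 1 with 68.7 M. A level of 3 reads corresponded to 0.0436 to 0.178 CPM, counting error only. Smc3, the floxed gene, went against the labels: it was at 81.6 ± 3.14 CPM (SD, n = 7) in WT and at 131 ± 10.3 CPM (SD, n = 5) in cKO, with a log2 fold change of 0.67 (SE 0.05). A gene-level value adds up all exons and does not show a deleted exon by itself. Directions below are therefore those of the libraries labelled cKO against those labelled WT. The tissue label was checked with 19 markers of hypothalamic neurons, of which 17 passed the CPM minimum. Their summed level ran from 137 to 738 CPM in WT and from 279 to 802 CPM in cKO, and 1 of the 19 was at 0 in at least 1 library. Only Sim1, a hypothalamic transcription factor, was called among them (higher, log2 fold change 0.56), while 12 of the 17 had fold changes above 0, with a median of 0.40.

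Markers of thalamic neurons, the neighbouring region, differed between the groups. Of 10 markers, 3 were called lower (Prkcd, Rgs16 and Plekhg1, with log2 fold changes of -1.44, -0.89 and -0.61) and 0 higher, and all 10 had fold changes below 0. Their sum ran from 689 to 1319 CPM in WT and from 493 to 817 CPM in cKO, and none was at 0 in any library. The score used as a covariate is the mean log2(CPM + 1) of this list. It was highest in WT 11 (6.74) and WT 7 (6.55) and lowest in cKO 12 (4.93). Of 4 markers of oligodendrocyte precursors, 2 were called higher (Gpr17 and Pdgfra), with sums of 173 to 241 CPM in WT and 200 to 245 CPM in cKO. Of 6 general neuron markers, 1 was called higher (Stmn2), with sums of 3947 to 4474 and 4225 to 4946 CPM. The part of these 2 lists in the results was not tested. The lists for oligodendrocytes, astrocytes, microglia, endothelium, mural cells, meninges, ependyma, choroid plexus, pituitary, cortex, striatum and habenula had 0 called genes in limma's test. At an unadjusted p under 0.05 in limma's test they held 2 of 5 tested habenular and 2 of 7 microglial genes. They also held 1 of 3 choroid plexus and 1 of 2 pituitary genes, against 31.1% of all tested genes. The choroid plexus sum was 25.6 ± 4.29 CPM in WT and 18.7 ± 2.69 CPM in cKO. The pituitary sum was 3.33 ± 1.42 and 7.72 ± 4.03 CPM. Lists with so few tested genes say little by having 0 calls.

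The promoters of 3 of the members that were lower without overlap of the libraries are shown, because each sits at a gene called lower: Sema5a and Sema4g, both membrane-bound ligands, and Plxnd1, a receptor. Each is the 250 bases before the annotated start, 5′ to 3′ on the gene's strand, from RefSeq on GRCm38.p6. Capitals mark the GC box, GGGCGG or its reverse complement, the motif known for binding Sp1-type factors, and overlapping matches run together.
Sema5a, chr15:32244563-32244812, plus strand: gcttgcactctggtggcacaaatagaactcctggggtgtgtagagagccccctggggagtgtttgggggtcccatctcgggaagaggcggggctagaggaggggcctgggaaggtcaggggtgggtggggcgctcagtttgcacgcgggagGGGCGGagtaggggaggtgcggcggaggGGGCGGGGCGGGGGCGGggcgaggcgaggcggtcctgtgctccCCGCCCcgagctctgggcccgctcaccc
Sema4g, chr19:44989094-44989343, plus strand: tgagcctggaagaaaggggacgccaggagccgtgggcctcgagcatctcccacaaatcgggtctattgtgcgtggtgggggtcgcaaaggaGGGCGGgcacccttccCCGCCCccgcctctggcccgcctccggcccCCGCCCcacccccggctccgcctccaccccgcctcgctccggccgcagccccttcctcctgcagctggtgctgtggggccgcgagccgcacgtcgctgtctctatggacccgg
Plxnd1, chr6:115995006-115995255, minus strand: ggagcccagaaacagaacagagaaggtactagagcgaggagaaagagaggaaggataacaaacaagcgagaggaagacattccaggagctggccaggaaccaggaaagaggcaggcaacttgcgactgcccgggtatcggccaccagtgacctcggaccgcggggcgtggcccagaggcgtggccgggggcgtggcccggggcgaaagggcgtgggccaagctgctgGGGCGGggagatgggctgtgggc

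The Sema5a window held 5 GC boxes, the Sema4g window 3 and the Plxnd1 window 1, and their GC contents were 72.0%, 73.2% and 64.8%. The median over all promoters was 52.4%. A GC box was found in 10756 of 32851 promoter windows of this length (32.7%) and in 53 of the 75 windows of the 59 members that matched by symbol (70.7%). The TATA box, TATAAA on either strand, was in 4063 of all windows (12.4%), in 2 of the members' 75 (2.67%) and in none of the 3 shown. These matches describe the letters only.

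Semaphorins, plexins and neuropilins held 5 of the 7 called members. All 31 listed genes of this family were tested, and the 5 were 16.1% of them, against 14.1% of all tested genes. In 27 (87.1%) the fold change was below 0, against 47.5% of all tested genes. After the GC correction 20 (64.5%) were below 0, against 42.0% of all genes. An unadjusted p under 0.05 in limma's test was reached by 12 (38.7%), against 31.1% of all tested genes. Every cKO library was below every WT library in 5 of the 31 genes (16.1%), against 3.20% of all tested genes. These 5 were the called genes. The separation rests on the same values as the calls and is no separate support for them. The median log2 fold change of the family was -0.11, with -0.07 after the GC correction.

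Sema5a, a transmembrane semaphorin with thrombospondin repeats that limits synapse formation in some neurons, had the largest fall of the called members on the log2 scale. Its lowest, median and highest levels in WT were 99.3, 107 and 127 CPM. In cKO 8, 9, 12, 13 and 14 it was at 46.3, 64.2, 84.6, 61.0 and 76.6 CPM. The groups did not overlap, and cKO 8 was the lowest library. The mean fell from 109 ± 8.86 to 66.5 ± 14.8 CPM (SD, n = 7 and 5), or by 39.1%. The log2 fold change was -0.73 (SE 0.12, limma adjusted p = 0.00351; two-sided exact permutation p = 0.00126, the smallest that 7 against 5 libraries can give). With the thalamic score as a covariate it was -0.80 (limma adjusted p = 0.0152).

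Sema3f, a secreted class 3 semaphorin that acts through neuropilin-2 and plexin A3 and is known for pruning dendritic spines, had WT levels of 25.3, 29.4 and 31.7 CPM (lowest, median, highest). In cKO 8, 9, 12, 13 and 14 it was at 18.8, 19.4, 24.4, 19.1 and 18.4 CPM. The cKO 12 library came within 1 CPM of the lowest WT library, and the other 4 were well below. The mean fell from 29.0 ± 2.34 to 20.0 ± 2.47 CPM, or by 30.9% (log2 fold change -0.51, SE 0.07, limma adjusted p = 0.00277). Its receptor partners were not called in limma's test without covariates. Nrp2 was at 55.1 ± 10.6 and 57.7 ± 12.6 CPM (log2 fold change 0.06, limma adjusted p = 0.802; -0.13 with the thalamic score). Plxna3 was at 77.3 ± 10.2 and 65.0 ± 3.39 CPM (log2 fold change -0.24, limma adjusted p = 0.0647). Plxna3 was called lower by DESeq2 (-0.26, adjusted p = 0.0237), and by limma with both marker scores (-0.32, adjusted p = 0.0415) and without WT 5 (-0.29, adjusted p = 0.0159). The other 6 class 3 semaphorins were not called either, and their fold changes lay on both sides of 0.

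Sema4g, a transmembrane class 4 semaphorin, had WT levels of 83.1, 96.4 and 107 CPM (lowest, median, highest). In cKO 8, 9, 12, 13 and 14 it was at 74.0, 74.0, 78.4, 69.4 and 68.5 CPM. The cKO libraries were close to one another and all below WT. The mean fell from 97.5 ± 8.57 to 72.9 ± 3.99 CPM, or by 25.3% (log2 fold change -0.41, SE 0.06, limma adjusted p = 0.00311).

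Sema6a, a class 6 transmembrane semaphorin that binds A-type plexins, ran from 57.7 to 66.5 CPM in WT and from 43.0 to 53.4 CPM in cKO. The fall in the mean, from 61.6 ± 3.59 to 50.1 ± 4.39 CPM, was the smallest of the 7 (18.8%; log2 fold change -0.30, SE 0.06, limma adjusted p = 0.00814). With the thalamic score as a covariate it was -0.21 and no longer called (limma adjusted p = 0.0771), and with the hypothalamic score added -0.22 (limma adjusted p = 0.0527). All 13 membrane-bound semaphorins had fold changes below 0, with a median of -0.15. After the GC correction 10 of the 13 did, with a median of -0.09, and Sema4d, Sema4f and Sema7a were above 0. With both marker scores 12 of the 13 did, and Sema7a was at 0.06. Sema6b, the semaphorin of highest CPM, went from 190 ± 14.9 to 172 ± 13.7 CPM (log2 fold change -0.14, limma adjusted p = 0.140).

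Plxnd1, the plexin that binds Sema3e and is known from blood vessels and from synapse choice in the forebrain, had WT levels of 29.5, 31.9 and 42.0 CPM (lowest, median, highest). In cKO 8, 9, 12, 13 and 14 it was at 20.2, 24.6, 19.0, 19.2 and 25.6 CPM. The WT 11 and WT 7 libraries, with the highest thalamic scores, were also the highest for Plxnd1. The mean fell from 33.7 ± 4.98 to 21.7 ± 3.16 CPM, or by 35.6% (log2 fold change -0.61, SE 0.10, limma adjusted p = 0.00435). With the thalamic score as a covariate the log2 fold change was -0.38 (limma adjusted p = 0.0325). Without WT 7, WT 11 and cKO 12 it was -0.46, and the gene stayed called. Its ligand Sema3e was at 8.90 ± 2.13 and 8.15 ± 1.02 CPM, a difference within the spread of the libraries.

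The other plexins and the neuropilins were not called. The 4 A-type plexins, the signalling partners of class 3 and class 6 semaphorins, all had fold changes below 0 and a median of -0.21. After median centring and after the GC correction 3 of the 4 did, and the GC correction gave a median of -0.10 and Plxna4 at 0.13. Plxna1 had the highest mean CPM of the family's receptors over all libraries, though not in cKO alone. It went from 180 ± 19.6 to 150 ± 22.8 CPM (log2 fold change -0.28, SE 0.10, limma adjusted p = 0.0860), and cKO 13 was the lowest library at 110 CPM. DESeq2 on the recovered reads, which called 17.9% of all genes, called it (adjusted p = 0.0493), and so did limma with both marker scores (-0.37, adjusted p = 0.0389). After the GC correction it was at -0.13. Plxnb1, a receptor for Sema4d, was at 155 ± 3.58 and 153 ± 10.8 CPM, and the GC correction turned its fold change from -0.02 to 0.13 and called it higher (limma adjusted p = 0.00878). Nrp1 was at 50.9 ± 5.99 and 49.9 ± 4.55 CPM.

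**Figure D2:**
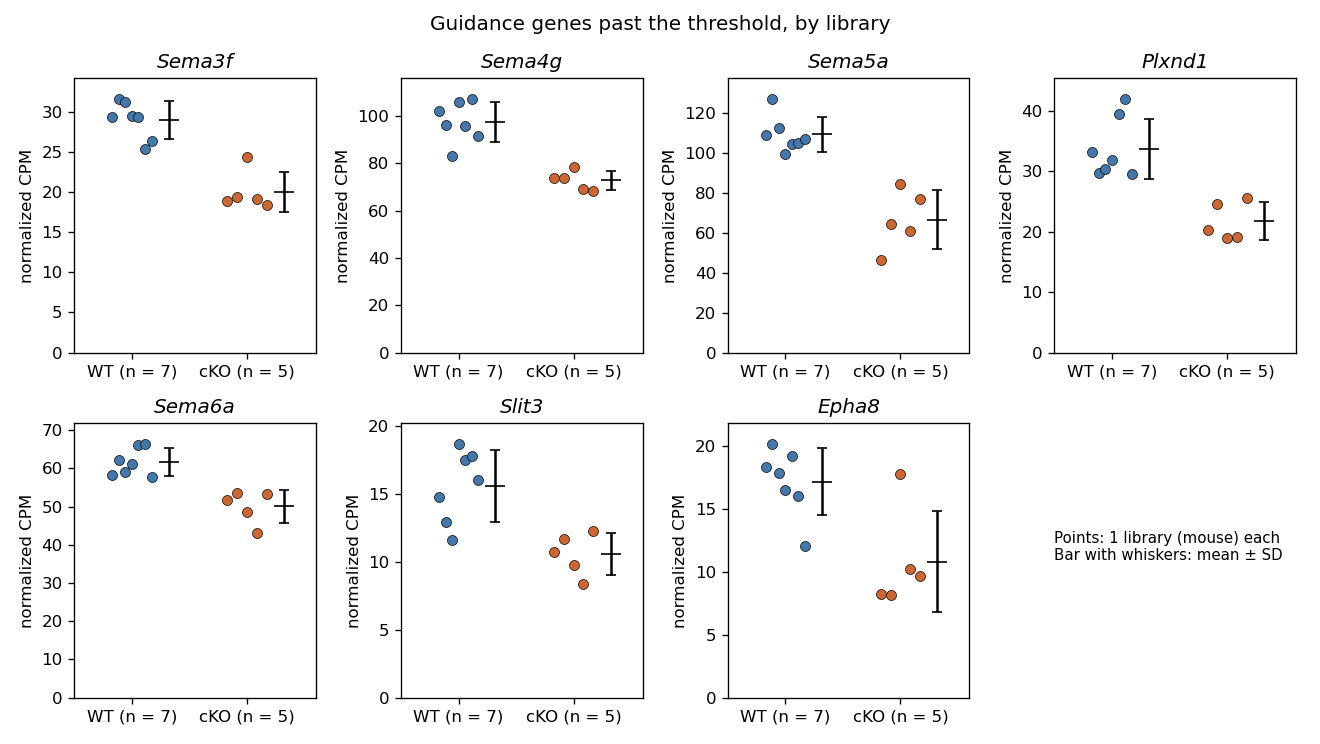
The plot of called members by library shows normalized CPM (y axis, from 0) in 7 WT and 5 cKO libraries, each point 1 mouse, with the mean ± SD beside the points. In Sema3f, Sema4g, Sema5a, Plxnd1 and Sema6a all cKO points lie below all WT points, while Slit3 and Epha8 overlap.

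Ephrins and Eph receptors gave 1 call among 21 tested genes (4.76%, against 14.1% of all tested genes), and it was lower. Fold changes below 0 were found in 16 (76.2%), against 47.5% of all tested genes, with a median of -0.10. After the GC correction 13 (61.9%) were below 0, against 42.0% of all genes, with a median of -0.06. None of the 7 tested ephrins was called, and 0 had an unadjusted p under 0.05 in limma's test. The called gene was Epha8, an A-type Eph receptor. Its WT levels were 12.1, 17.9 and 20.2 CPM (lowest, median, highest). In cKO 8, 9, 12, 13 and 14 it was at 8.22, 8.19, 17.8, 10.2 and 9.71 CPM. The cKO 12 library lay inside the WT range, and the other 4 lay below all of it. The mean fell from 17.2 ± 2.69 to 10.8 ± 4.01 CPM, or by 37.0% (log2 fold change -0.66, SE 0.17, limma adjusted p = 0.0210; exact permutation p = 0.00631). Without cKO 9 it was no longer called (-0.58, limma adjusted p = 0.0528), where 9.76% of all genes were. It was -0.78 with the thalamic score (limma adjusted p = 0.0492).

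The other 8 EphA receptors were not called, and 7 of them had fold changes below 0. Epha10, a kinase-inactive member, went from 83.6 ± 8.96 to 66.8 ± 14.8 CPM (log2 fold change -0.34, SE 0.11, limma adjusted p = 0.0635). It was called by DESeq2 (-0.33, adjusted p = 0.0350), and also without cKO 12, where limma gave -0.45 (adjusted p = 0.0109) and called 12.7% of all genes. Limma also called it with both marker scores (-0.43, adjusted p = 0.0269) and without WT 7, WT 11 and cKO 12 (-0.49, adjusted p = 0.0184). Epha1 was low in every library but spread widely. In WT 1, 4, 5, 6, 7, 11 and 15 it was at 3.27, 2.91, 1.81, 1.97, 6.10, 7.06 and 1.69 CPM, and in cKO 8, 9, 12, 13 and 14 at 1.72, 2.60, 0.513, 0.997 and 1.95 CPM. The high WT 7 and WT 11 libraries had the highest thalamic scores and cKO 12 the lowest. Epha1 was not called by limma (log2 fold change -0.77, adjusted p = 0.10). DESeq2 called it (-1.20, adjusted p = 0.0342), while with the thalamic score in limma it was at -0.02 (adjusted p = 0.962). Epha2, just above the CPM minimum with a mean of 1.83 CPM over all libraries, was at 1.99 ± 0.163 in WT and 1.59 ± 0.258 CPM in cKO (limma adjusted p = 0.0920). Epha5, the Eph receptor of highest CPM, was at 108 ± 6.79 and 109 ± 9.67 CPM, with a log2 fold change of 0.01 that changed sign under quantile normalization (-0.00253). Efnb3, the ephrin of highest CPM and a midline barrier ligand in the spinal cord, was at 176 ± 16.6 and 164 ± 13.6 CPM (log2 fold change -0.10, limma adjusted p = 0.372).

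Slits and Robos gave 1 call among 6 tested genes (16.7%, against 14.1% of all tested genes). Slit3, a secreted ligand of Robo receptors, had WT levels of 11.6, 16.0 and 18.7 CPM (lowest, median, highest). In cKO 8, 9, 12, 13 and 14 it was at 10.7, 11.7, 9.80, 8.40 and 12.3 CPM. The ranges overlapped, with WT 5 the only WT library inside the cKO range. The mean fell from 15.6 ± 2.65 to 10.6 ± 1.53 CPM, or by 32.3% (log2 fold change -0.52, SE 0.12, limma adjusted p = 0.0144; exact permutation p = 0.00631). It was -0.43 with the thalamic score and no longer called (limma adjusted p = 0.107). It was also not called without WT 7, WT 11 and cKO 12 (-0.42, limma adjusted p = 0.0815). Slit1 went from 173 ± 26.2 to 155 ± 24.8 CPM (log2 fold change -0.17, limma adjusted p = 0.366). With both marker scores it was called lower (-0.31, limma adjusted p = 0.0352), and without cKO 13 it was at -0.06. Slit2 went from 56.3 ± 7.16 to 60.9 ± 7.37 CPM (log2 fold change 0.11, limma adjusted p = 0.438), but its fold change was -0.09 with the thalamic score, -0.11 with both scores and -0.01 without WT 7, WT 11 and cKO 12. Robo1 was at 85.4 ± 5.93 and 80.2 ± 9.41 CPM and Robo2 at 59.5 ± 5.95 and 63.5 ± 6.53 CPM, with the groups overlapping. The endothelial receptor Robo4 was at 7.20 ± 0.893 and 7.24 ± 0.708 CPM. The median of the 6 fold changes was -0.04 and turned to 0.03 after the GC correction.

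Netrins, Dcc and the Unc5 receptors gave 0 calls among 8 tested genes in limma (14.1% of all genes called). They also gave 0 in edgeR's quasi-likelihood test (13.7% of all genes) and in DESeq2 (17.9%). An unadjusted p under 0.05 in limma's test was reached by 1 of the 8 (12.5%, against 31.1% of all tested genes). That was Dcc, the netrin receptor for attraction. It was at 43.3 ± 3.20 and 38.0 ± 4.35 CPM (log2 fold change -0.19, limma adjusted p = 0.0906), and without cKO 12 it was called (-0.24, adjusted p = 0.0326). Unc5a had the highest mean CPM of these receptors over all libraries, while in WT alone Unc5d was higher, at 62.4 CPM. Unc5a was at 58.9 ± 5.79 and 60.0 ± 7.52 CPM. Its log2 fold change of 0.02 turned to -0.08 with the thalamic score. Unc5b, Unc5c and Unc5d had log2 fold changes of -0.20, -0.17 and -0.20, none called. Ntn3 and Ntn4 had 0.16 and 0.18 (limma adjusted p = 0.257 and 0.220). As the thalamic score was added, Ntn3 was at 0.10 and Ntn4 at -0.01. After the GC correction Ntn3 was called higher (0.27, limma adjusted p = 0.0438), and also without cKO 13 (0.25, adjusted p = 0.0404, in a fit that called 10.1% of all genes).

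The remaining 3 members were under the CPM minimum of the main fit. None of them was called when that minimum was dropped. Robo3, just below it at a mean of 0.990 CPM, ran from 0.207 to 1.95 CPM in WT and from 0.0420 to 1.59 CPM in cKO. Its lowest value, in cKO 8, was 1 read, under the 3-read level of that library (0.126 CPM). Efna4 had a mean of 0.514 CPM. Ntn5 had a mean of 0.0954 CPM and was listed at 0 in some libraries of both groups. All 66 tested members had a mean of at least 1 CPM in each group.

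Several members varied between mice more than between groups. The median coefficient of variation over the members was 11.2% in WT and 13.1% in cKO, against 8.19% and 9.22% over all tested genes. In 18 members (27.3%) the highest library was more than 2 times the lowest, as in 17.9% of all tested genes. Ntn1, the netrin of highest CPM, was at 42.3, 44.9, 48.6, 25.1, 24.1, 19.0 and 29.5 CPM in WT 1, 4, 5, 6, 7, 11 and 15. It was at 18.5, 20.6, 51.2, 36.4 and 21.3 CPM in cKO 8, 9, 12, 13 and 14. The groups overlapped fully (log2 fold change -0.20, SE 0.28, limma adjusted p = 0.662). The fold change was -0.68 with the thalamic score and ran from -0.42 (without cKO 12) to -0.07 (without cKO 8) when 1 library was left out, none of them called. The hypothalamic marker score was lowest in WT 5 and WT 4 (2.32 and 2.49), followed by cKO 12 (2.92), WT 11 (3.10) and cKO 13 (3.16). Apart from WT 11, these libraries were the highest of their groups for Ntn1 and for Sema7a, a lipid-anchored semaphorin, at 85.2, 85.8, 78.2 and 78.1 CPM for Sema7a in WT 5, WT 4, cKO 12 and cKO 13. For Ntn1, WT 1 with a score of 3.85 was close behind WT 4 and above cKO 13. The same 4 libraries were the lowest of their groups for Plxnc1, the Sema7a receptor, at 99.4, 95.3, 119 and 112 CPM. With the hypothalamic score added to the thalamic one, Ntn1 went from -0.68 to -0.53 and Plxnc1 from 0.42 to 0.31. Sema7a went from -0.08 to 0.06, and none of these was called in either fit. The part of the hypothalamic score in these levels was not tested. In bulk tissue, fewer cells of a type and less RNA per cell cannot be told apart.

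**Figure D3:**
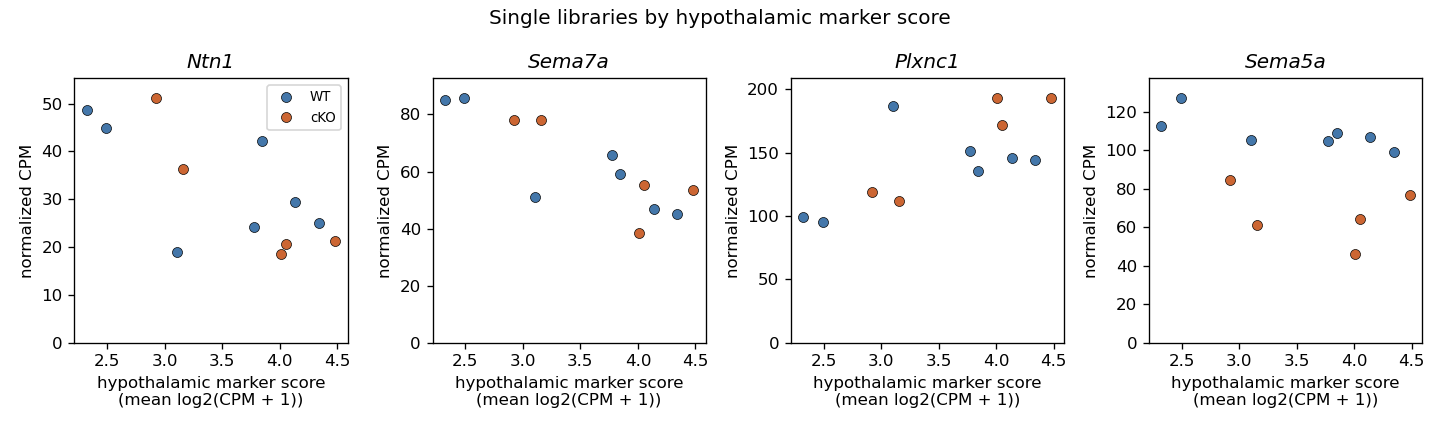
The plot of single libraries by marker score shows normalized CPM (y axis, from 0) against the hypothalamic marker score (x axis, mean log2(CPM + 1)) for Ntn1, Sema7a, Plxnc1 and Sema5a, each point 1 library. WT 4 and WT 5, with scores of 2.49 and 2.32, are at the left, and only in Sema5a do the cKO points lie below all WT points.

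Levels were compared between genes per kb of the longest annotated transcript. In WT the order began with Efnb3 at 55.3 ± 5.22 and Sema6b at 50.8 ± 3.99 CPM per kb, which did not differ beyond their spread. Slit1 at 30.6 ± 4.62 and Sema4a at 27.1 ± 1.72 followed, again within their spread of each other. Ephb6 at 21.5 ± 1.77 and Sema4g at 21.4 ± 1.88 came next. In cKO Sema4g was at 16.0 ± 0.877 and Ephb6 at 21.2 ± 1.86 CPM per kb. The other called members were further down in WT, with Sema5a at 10.1 ± 0.820, Sema3f at 8.53 ± 0.689 and Plxnd1 at 4.88 ± 0.721 CPM per kb. The lowest levels of tested members in WT were those of Sema3a (1.03 ± 0.351), Epha3 (0.794 ± 0.201) and Epha2 (0.509 ± 0.0416).

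**Figure D4:**
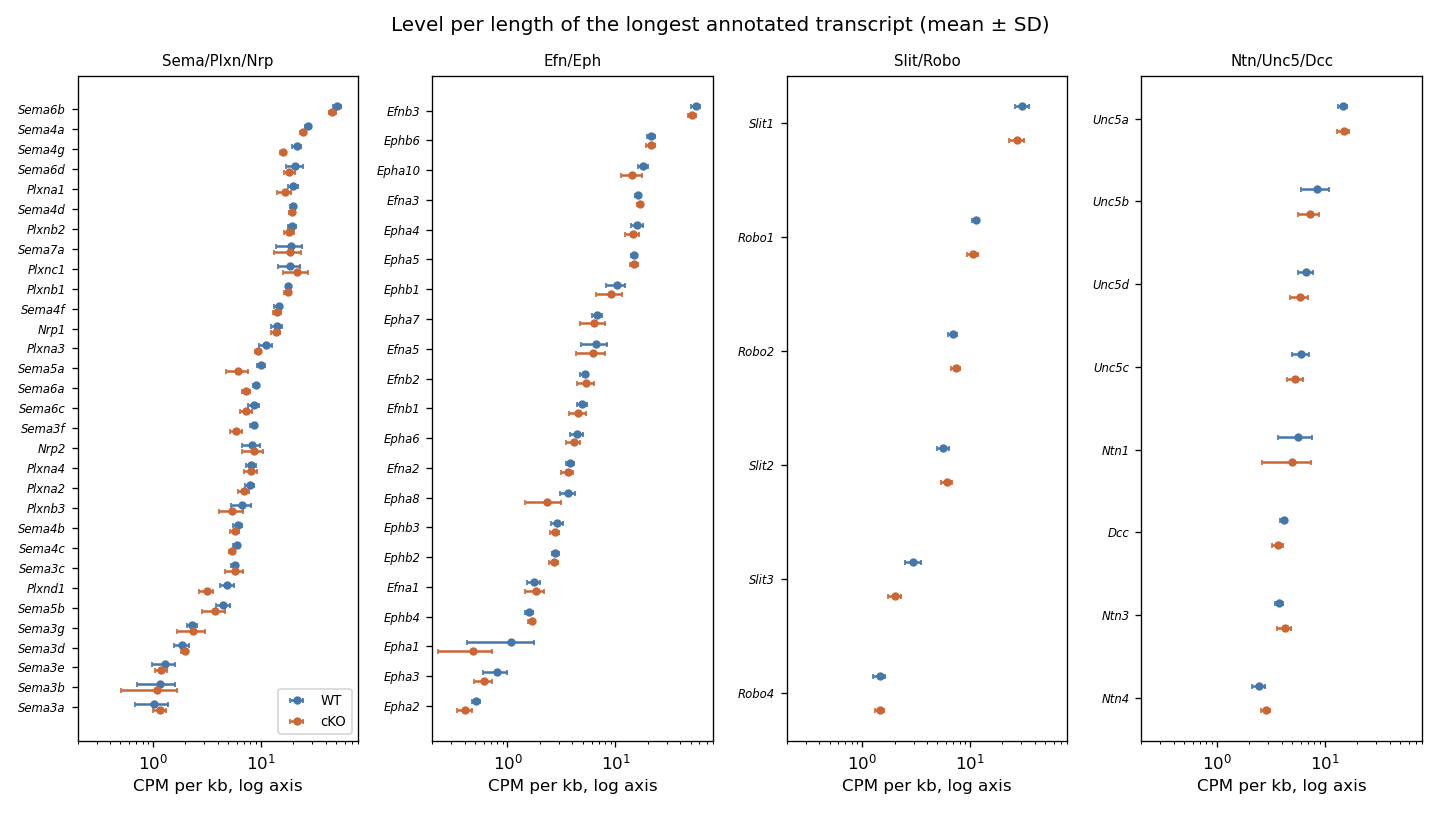
The plot of levels per length shows CPM per kb of the longest annotated transcript (x axis, log scale) for the 66 tested members, as mean ± SD over 7 WT and 5 cKO libraries, in one panel per family. Efnb3 (55.3 in WT) and Sema6b (50.8 in WT) are at the top of their panels, and Epha2 (0.509 in WT) is the lowest of the 66.

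Other genes of the guidance pathways, outside the rule, gave 14 calls among 67 tested (20.9%, against 14.1% of all tested genes), 6 higher and 8 lower, with a median log2 fold change of -0.00485. Among 23 tested co-receptors and further ligands, 4 were called higher and 3 lower. Lrrc4, a synaptic adhesion protein that binds netrin-G2, rose from 43.6 ± 2.73 to 50.7 ± 1.81 CPM (log2 fold change 0.22, limma adjusted p = 0.0119). Cntn1, an immunoglobulin-type adhesion protein of axons, rose by 0.20 (limma adjusted p = 0.0185). Ntng1, the membrane-anchored netrin-G1, fell from 240 ± 56.4 to 164 ± 23.6 CPM (log2 fold change -0.53, limma adjusted p = 0.0287). Among 44 signalling effectors, 2 were called higher and 5 lower. When the thalamic score was a covariate 2 pathway genes were called, as calls over all genes went from 14.1% to 5.44%. Lrrc4, Cntn1 and Ntng1 were therefore not all called in that fit. Without WT 7, WT 11 and cKO 12, 4 were called, as calls over all genes went to 8.23%. Leaving out 1 library gave between 4 calls (without WT 1, with 1158 calls over all genes) and 13 (without WT 5, with 2302), against 2172 calls over all genes with all libraries.

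The called members were followed through other models because of the thalamic markers. The thalamic score came from the same libraries, and all 10 of its markers had fold changes below 0 in cKO. What belongs to the score and what belongs to the genotype therefore cannot be fully told apart in these fits. With the thalamic score in the model, 5 of the 7 stayed called (Sema3f, Sema4g, Sema5a, Plxnd1 and Epha8), and with both scores 6 of the 7 did. With the members gained, 7 of 66 (10.6%) were called with the thalamic score and 14 of 66 (21.2%) with both, all lower, while 835 (5.44%) and 1359 (8.85%) of all genes were. Sema4a and Sema4c were gained in both fits, and Sema6c, Plxna1, Plxna3, Epha10, Ephb1 and Slit1 with both scores only. Without WT 7, WT 11 and cKO 12, an alternative chosen after seeing the data, 6 of the 7 stayed called and Epha10, Ephb1 and Dcc were gained. These were 9 of 67 members (13.4%), against 1262 of all genes (8.23%). Sema5a was then at -0.85 and Epha8 at -0.83.

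**Figure D5:**
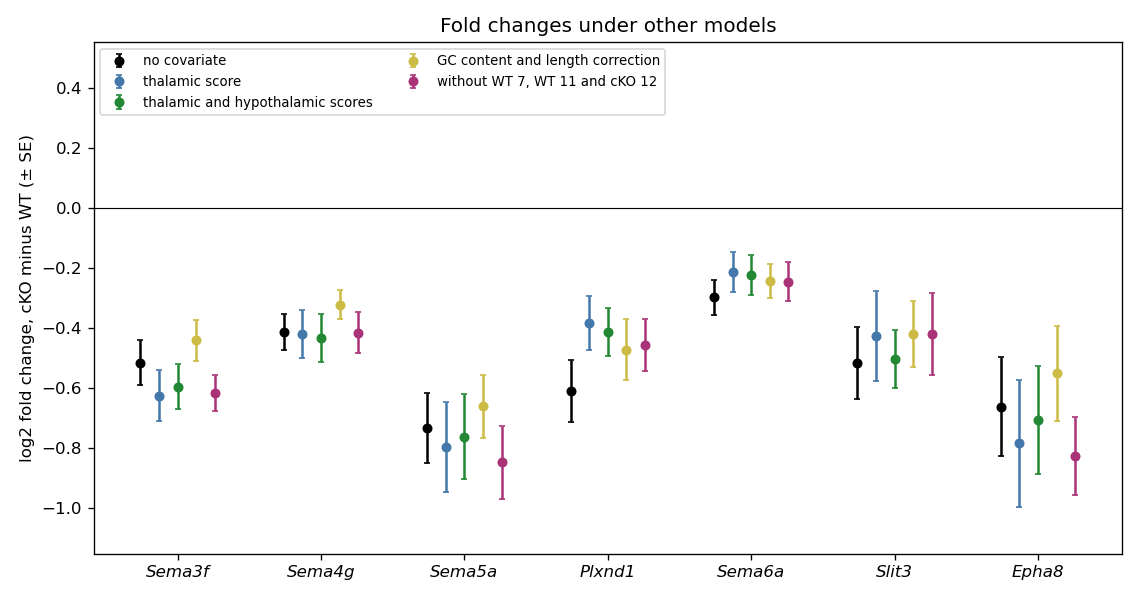
The plot of fold changes under other models shows the log2 fold change ± SE (y axis, cKO minus WT) of the 7 called members without a covariate, with the marker scores as covariates, after the GC and length correction, and without WT 7, WT 11 and cKO 12. All points lie below 0. Plxnd1 moves from -0.61 to -0.38 with the thalamic score.

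The authors' deposited table of their own comparison, made from these libraries, listed 1604 of 32494 genes (4.94%) at a false discovery rate under 0.05, 1073 (3.30%) of them lower. Its 7 listed members at that rate were the same 7 called here. In the authors' deposited table Sema5a had a log2 fold change of -0.72, Plxnd1 -0.64, Slit3 -0.57 and Sema6a -0.30. The sign was the same in both for 64 of the 66 tested members.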

How the data were processed

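Messenger RNA libraries of 12 hypothalami were compared, 7 WT against 5 cKO, grouped by title and genotype. The authors deposited normalized CPM per gene, and a table of their own comparison with log2 fold changes, log2 mean CPM, p-values and false discovery rates. Per the submitters' processing notes the tools included bcl2fastq, FastQC 0.11.9, STAR 2.7.9a, SAMtools, Subread and featureCounts. Genome build, annotation and strand setting are not given in the sources used here, so overlapping antisense genes cannot be told apart. The deposited CPM values of a library were all (100%) multiples of the worth of 1 read, within a tolerance of 0.01 read, which gave back whole reads. On these, edgeR's quasi-likelihood test (4.0.16) called 2097 genes and DESeq2 (1.42.0) 2747. Of the library columns, 0 were left unused.

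The main test was limma 3.58.1 (R 4.3.3) with trend on log2(CPM + 1), over the 15359 genes averaging 1 CPM or more, with Benjamini-Hochberg adjustment over all of them and a threshold of 0.05. Fold changes on that scale are smaller than the true ones for low genes. Single genes also had a two-sided exact permutation test. On simulated counts, 198 of 198 tested genes changed by 1 log2 unit were recovered among 15336 genes, with 14 false calls. Recovery of smaller fold changes was not tested. The log2 fold changes of the called members were smaller in size, from -0.73 (Sema5a) to -0.30 (Sema6a). Nothing in the labels says whether mice shared a litter or batch.

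The members, lists and tests were chosen with earlier results of these data known. Named were all called members, with values by library for up to 4 per family, the ligand and receptor of highest mean CPM in each family, and the 3 called co-receptors or further ligands of smallest adjusted p. Single effector genes are not reported here. Other members named were chosen after their values were seen. Alternatives were a pseudocount of 0.1, no CPM minimum or 5 CPM, median centring, quantile normalization, robust limma, edgeR, DESeq2, marker scores as covariates, a spline correction (4 degrees of freedom) for transcript GC content and length from GENCODE M21 (14515 genes matched), and leaving out libraries. Promoters came from RefSeq.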

Additional observations from a re-analysis of the deposited data

Results flagged for a closer look

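In 9 of 132 groups of values (66 members in 2 groups), the highest or lowest library stood apart from the rest of its group by Dixon's test, where chance gives about 6.6. Among the called members, Sema3f was highest in cKO 12, at 24.4 CPM with the next library at 19.4. Epha8 was also highest in cKO 12, at 17.8 CPM against 10.2 in the next. In the cKO 13 library Plxna1 was low, at 109.9 CPM against 154 in the next, and so was Sema4b, at 18.7 against 23.1 CPM. In cKO 8 Efna3 was low, at 35.3 against 40.3 CPM, and so was Sema3c, at 21.1 against 32.5 CPM. In WT 11 Ntn4 was low, at 6.53 against 8.78 CPM, and Unc5c was high, at 78.9 against 60.9 CPM. Epha5 was low in WT 6, at 93.9 against 106 CPM.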

How the results depend on the processing

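Over 24 alternatives, 12 of which left out 1 library, the 7 called members gave 168 fold changes, all below 0, and 163 were still past the threshold; the 5 exceptions, in Sema6a, Slit3 and Epha8, stand with those genes. Their exact permutation p reached at most 0.0216 where it was recomputed. The count of 7 members rose to 12 with DESeq2 (18.2% of the 66, where 17.9% of all genes were called). It was 14 with both marker scores (21.2%, against 8.85%). Leaving out 1 library gave 6 (without cKO 9, 8.96% against 9.76%) to 10 (without cKO 12, 15.2% against 12.7%). For semaphorins, plexins and neuropilins it was 8 with DESeq2 (25.8%), 9 with both scores (29.0%) and 5 to 7 without 1 library. For ephrins and Ephs it was 3 (14.3%) with DESeq2, with both scores and without WT 7, WT 11 and cKO 12 together. It was 0 (without cKO 9) to 2 (without cKO 12) without 1 library. For Slits and Robos it was 0 with the thalamic score, 2 with both scores, 0 without those 3 libraries and 1 without any 1 library. For netrins, Dcc and Unc5 it was 1 after the GC correction, 1 without those 3 libraries and 0 to 1 without 1 library. The 14 pathway genes became 6 with no CPM minimum, 2 with the thalamic score, 6 with both scores, 4 without those 3 libraries and 4 to 13 without 1 library (4 without WT 1, 5 without cKO 14, 6 without WT 7 or cKO 13, 7 without cKO 9, 8 without WT 6 or WT 11, 9 without WT 4). The 2172 calls over all genes became 835 with the thalamic score, 1359 with both, 1262 without those 3 libraries and 1158 (without WT 1) to 2302 without 1 library. Of the 59 uncalled members 27 changed sign under at least 1 alternative, all with a fold change of at most 0.18 in size in the fit without covariates. Among those named for their level these were Epha5, to -0.00253 under quantile normalization, -0.0242 without WT 6, -0.00636 without cKO 9 and -0.0299 without cKO 14 (the highest without 1 library was 0.0588), and Unc5a, to -0.0782 with the thalamic score, -0.121 with both, -0.00716 without WT 5, -0.0368 without cKO 8 and -0.0182 without those 3 libraries (the highest without 1 library was 0.0836). Except where fewer libraries or genes entered, the cause was not tested. No paired analysis was possible because nothing in the labels pairs mice of the 2 groups. Depth limits Efna4 and Ntn5, with at most 30 and 11 reads in any library, and Robo3 in cKO 8, with 1 read.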
